A study of Homo sapiens with 16 samples.

Results

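Replication-dependent histone genes were examined in 16HBE cells that carried wild-type MET or MET lacking exon 14, with and without hepatocyte growth factor (HGF). Members were all non-control array probes whose gene name began with HIST1H, HIST2H, HIST3H or HIST4H, whatever their values. The rule gave 87 probes for 70 genes of the 58201 probes on the array. A probe was tested where 4 or more of the 16 arrays had it well above background, as 83 probes for 69 genes did. The tested probes comprised 6 for linker histone H1, 22 for H2A, 19 for H2B, 16 for H3 and 20 for H4. The other 4 probes were both HIST2H2BA probes and the more downstream probes of HIST2H2BE and HIST1H2AG, which were well above background on 0 or 1 arrays each.

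16HBE is a bronchial epithelial line immortalised with SV40 large T antigen, and 16HBE-ex14 is 1 clone of it, clone F, in which CRISPR/Cas9 cutting at the splice donor made MET skip exon 14. All cells spent 2 h without serum and were then left untreated (16HBE-WT, 16HBE-ex14) or given HGF at 20 ng/mL for 24 h (16HBE-WT+HGF, 16HBE-ex14+HGF), so the untreated groups shared the starvation. Each group had 4 one-colour Agilent arrays, on 2 slides with 2 rows each, and each row of a slide held 1 array of every group. Replicates 1 to 4 below number these places in order, slide by slide and row by row. The labels do not tie arrays to the weekly cultures that the methods describe, so p-values measure the spread between these arrays. Because the edited cells are 1 clone, the MET change and other differences of that clone cannot be told apart.

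Each value below is a level, the log2 of the processed signal minus the array's 75th percentile, and each difference is a difference of such levels. The 75th percentile of signal ranged from 139.5 to 262.8 over the arrays, and 49% to 60.3% of probes were well above background. All 8 epithelial markers were well above background on all 16 arrays, while all 4 fibroblast markers were well above background on 0. Of 4 blood cell markers, PTPRC and CD3E were well above background on all 16 arrays, and of 3 endothelial markers VWF and CDH5 were, with mean levels from -3.24 to -1.57, while PECAM1 was on 0. The part of these in the results was not tested. The single MET probe does not report exon 14. Its level averaged 4.98 ± 0.167 (SD, n = 4) in 16HBE-WT and 5.11 ± 0.152 (SD, n = 4) in 16HBE-ex14, with an adjusted p of 0.456.

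Replication-dependent histones supply the proteins that package newly copied DNA. H2A, H2B, H3 and H4 form the nucleosome core, and H1 binds the linker DNA between nucleosomes. Their genes lie in clusters, are transcribed mainly in S phase under the coactivator NPAT, and make messengers that end in a conserved stem-loop bound by SLBP rather than in a poly(A) tail. Some members can also be read through to a downstream polyadenylation signal, which gives a polyadenylated messenger. The methods name the low input QuickAmp kit for labelling, which in its standard form primes at poly(A) tails.

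Of the 70 genes, 56 lay on chromosome 6, 13 on chromosome 1 and 1 on chromosome 12 (probe positions in hg19). All 87 probes were matched to a current gene symbol, 3 genes (HIST1H2APS1, HIST2H2BA and HIST2H2BC) were pseudogenes by RefSeq biotype, and 16 genes had more than 1 probe. The family is repetitive in sequence, and the accessions of 6 probes named more than 1 gene, and cross-hybridisation between near-identical copies was not tested.

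Some probes reached the elements at the end of the messenger. The stem-loop was searched on both strands as GG, any 2 bases, CTTTT, any base, AG, any 2 bases and CC. It was present in 7 of 58201 probes (0.012%), and all 7 were histone probes (8.05% of 87). It occurred once on the opposite strand, in no histone probe. The matched stem and loop are in capitals in these 30-base stretches, shown because they hold the element for which the family is known. An RNA read through to a downstream signal also holds the stem-loop, so these probes do not show which end was measured.
HIST1H2AI: ggaaccaaaGGCTCTTTTCAGAGCCaccta
HIST1H2BE: aaacccaaaGGCTCTTTTCAGAGCCactca
HIST1H2BF: acccaatcccaaaGGCTCTTTTAAGAGCCa
HIST1H3H: atacccaaaGGCTCTTTTCAGAGCCaccca
HIST1H4K: ctatcaacaaaaGGCCCTTTTTAGGGCCcc
HIST2H2AA4: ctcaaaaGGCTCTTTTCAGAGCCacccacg
HIST2H3A: cgtatccaaaaGGCTCTTTTCAGAGCCacc

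The polyadenylation signal AATAAA occurred in 4567 probes (7.85%) on the probe strand and in 2096 on the opposite strand. Among histone probes it occurred in 7 (8.05%) and on the opposite strand in 0. One HIST2H2AA4 probe (chr1:149823132-149823191, plus strand, hg19) held both elements, with 13 bases between the end of the stem-loop and AATAAA. The stretches below carry the first AATAAA of each probe in capitals and come from probes that recur in the results. The HIST1H4H stretch holds a further AATAAA, left in lower case. Its probe lies at chr6:26281286-26281345 and the HIST2H3PS2 probe at chr1:149397120-149397179, both on the minus strand.
HIST2H2AA4: cccacgttttcaAATAAAagagttgttaat
HIST2H3PS2: tttcttttgccaAATAAAatatacccttgg
HIST1H4H: ccacagatttccAATAAAaggtgaataaaa

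The promoters of the family had elements in common that the naming rule did not use. RefSeq promoters (GRCh38.p14) were at hand for 62 of the 70 genes, and the 250 bases before the start were searched on both strands. TATAAA was present in 42 of 62 (67.7%), against 3763 of 35116 promoters in all. CCAAT was present in 53 (85.5%), against 32% in all, and the octamer ATTTGCAT in 25 (40.3%), against 1.63%. CCAAT was found in every H1, H2A, H2B and H3 promoter searched but in 3 of 12 H4 promoters. The octamer was found in 11 of 15 H2A and 13 of 17 H2B promoters, in 1 of 12 H3 promoters and in none of the 6 H1 or 12 H4 promoters. A gene pair that faces away from a common stretch can share elements, as HIST1H2AC and HIST1H2BC do, so promoters are not independent. The H3 promoter with the octamer, that of HIST1H3D, was the same stretch as the HIST1H2AD promoter and was counted in both classes.

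These promoters are shown as the 150 bases before the start, with the TATA, CCAAT box and octamer letters on either strand in capitals. They belong to HIST1H1A and HIST1H2BK, which were called in the genotype comparisons, to HIST1H2AC, and to the bright H4 gene HIST1H4L. The HIST1H4L promoter is among the 3 of 12 H4 promoters with CCAAT, so it does not stand for its class there.
HIST1H1A, H1, chr6:26017788-26017937, minus strand: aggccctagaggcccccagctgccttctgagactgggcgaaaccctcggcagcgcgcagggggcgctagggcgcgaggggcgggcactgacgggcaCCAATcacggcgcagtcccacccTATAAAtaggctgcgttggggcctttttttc
HIST1H2BK, H2B, chr6:27146859-27147008, minus strand: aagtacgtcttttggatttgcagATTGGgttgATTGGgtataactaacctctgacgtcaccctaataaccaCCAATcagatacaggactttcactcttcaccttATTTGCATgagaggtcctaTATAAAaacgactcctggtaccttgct
HIST1H2AC, H2A, chr6:26124022-26124171, plus strand: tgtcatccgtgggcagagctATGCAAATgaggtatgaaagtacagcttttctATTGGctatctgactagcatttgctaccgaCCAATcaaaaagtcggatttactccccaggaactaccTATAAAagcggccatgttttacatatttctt
HIST1H4L, H4, chr6:27873535-27873684, minus strand: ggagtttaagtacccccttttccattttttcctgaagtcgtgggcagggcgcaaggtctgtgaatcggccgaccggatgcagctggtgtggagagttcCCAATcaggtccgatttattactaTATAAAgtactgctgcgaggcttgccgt

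Before any group difference, the arrays differed from each other within every group. Over the 4 arrays in replicate order, the median level of the 83 probes was 4.75, 4.85, 4.10 and 4.76 in 16HBE-WT. It was 4.75, 4.89, 4.88 and 4.24 in 16HBE-WT+HGF. In 16HBE-ex14 it was 5.14, 4.50, 4.82 and 4.88, and in 16HBE-ex14+HGF it was 4.23, 4.79, 4.77 and 5.09. The ranges of all groups overlapped. Some array of 4 is always lowest. Only in 16HBE-WT did the histone median pass the limit for a single outlying array given below.

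**Figure D1:**
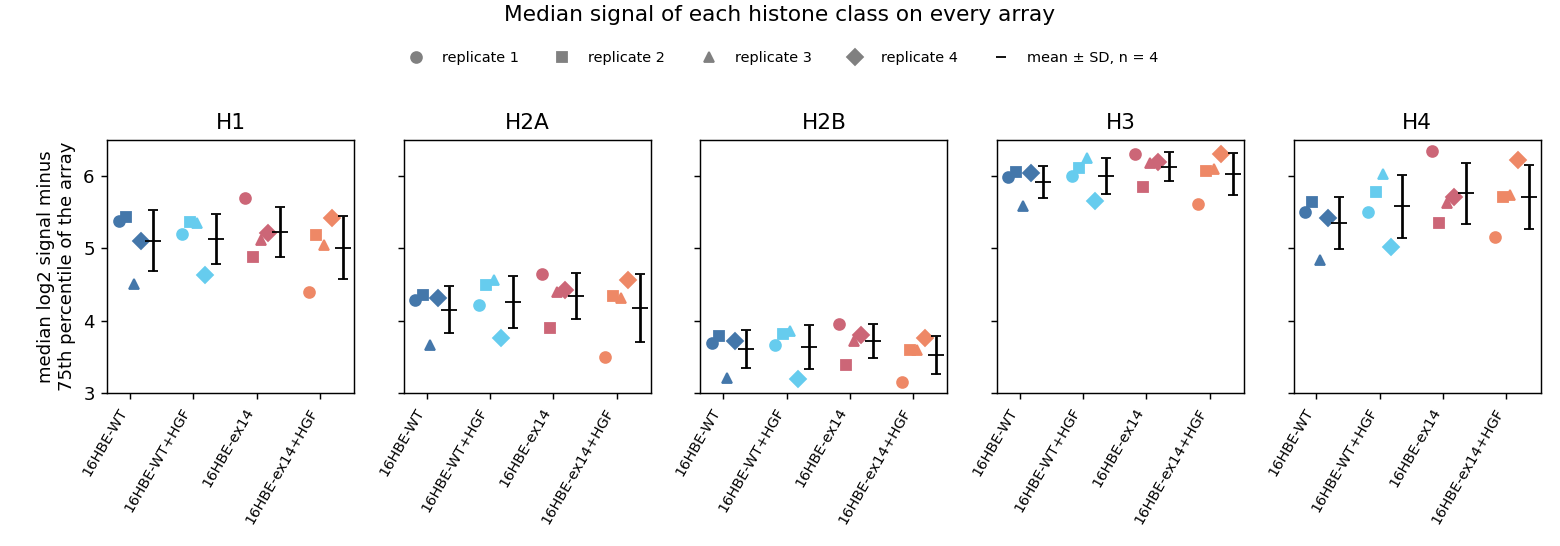
Median level of the tested histone probes of each class (log2 processed signal minus the array's 75th percentile) on each of the 16 arrays, by group. The same array of each group is the lowest in every class, and the group ranges overlap.

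On the array with the lowest median of its group, most probes of the family were low together. These arrays were picked by the same probes, so the shares below describe them and are not a test. Replicate 3 of 16HBE-WT was the lowest array of its group for 75 of 83 histone probes (90.4%), against 22.4% of all tested probes. Replicate 4 of 16HBE-WT+HGF was the lowest for 74 (89.2% against 27.8%), replicate 2 of 16HBE-ex14 for 71 (85.5% against 32%) and replicate 1 of 16HBE-ex14+HGF for 73 (88% against 32.7%). These arrays lay at 4 different places of slide and row. Their median deviations from the group mean were -0.45, -0.45, -0.33 and -0.50 in the same order. Other arrays were high instead, replicate 1 of 16HBE-ex14 being the highest of its group for 78 probes, replicate 4 of 16HBE-ex14+HGF for 68 and replicate 2 of 16HBE-WT for 61. In 16HBE-ex14 the high replicate 1 lay about as far from the group mean, at 0.32, as the low replicate 2.

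All classes took part. On the low 16HBE-WT array the median deviation was -0.39 for H1, -0.51 for H2A, -0.39 for H2B, -0.36 for H3 and -0.52 for H4. On the low 16HBE-ex14+HGF array it was -0.49, -0.55, -0.42, -0.46 and -0.53 for the same classes. Of the 83 probes, 68 were lowest on all 4 of these arrays. Those that were lowest on none of them were HIST1H1T, the testis linker histone, HIST1H2APS1, the more downstream HIST1H2BK probe, HIST2H2BC and both HIST2H3PS2 probes, singled out after their values were seen.

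**Figure D2:**
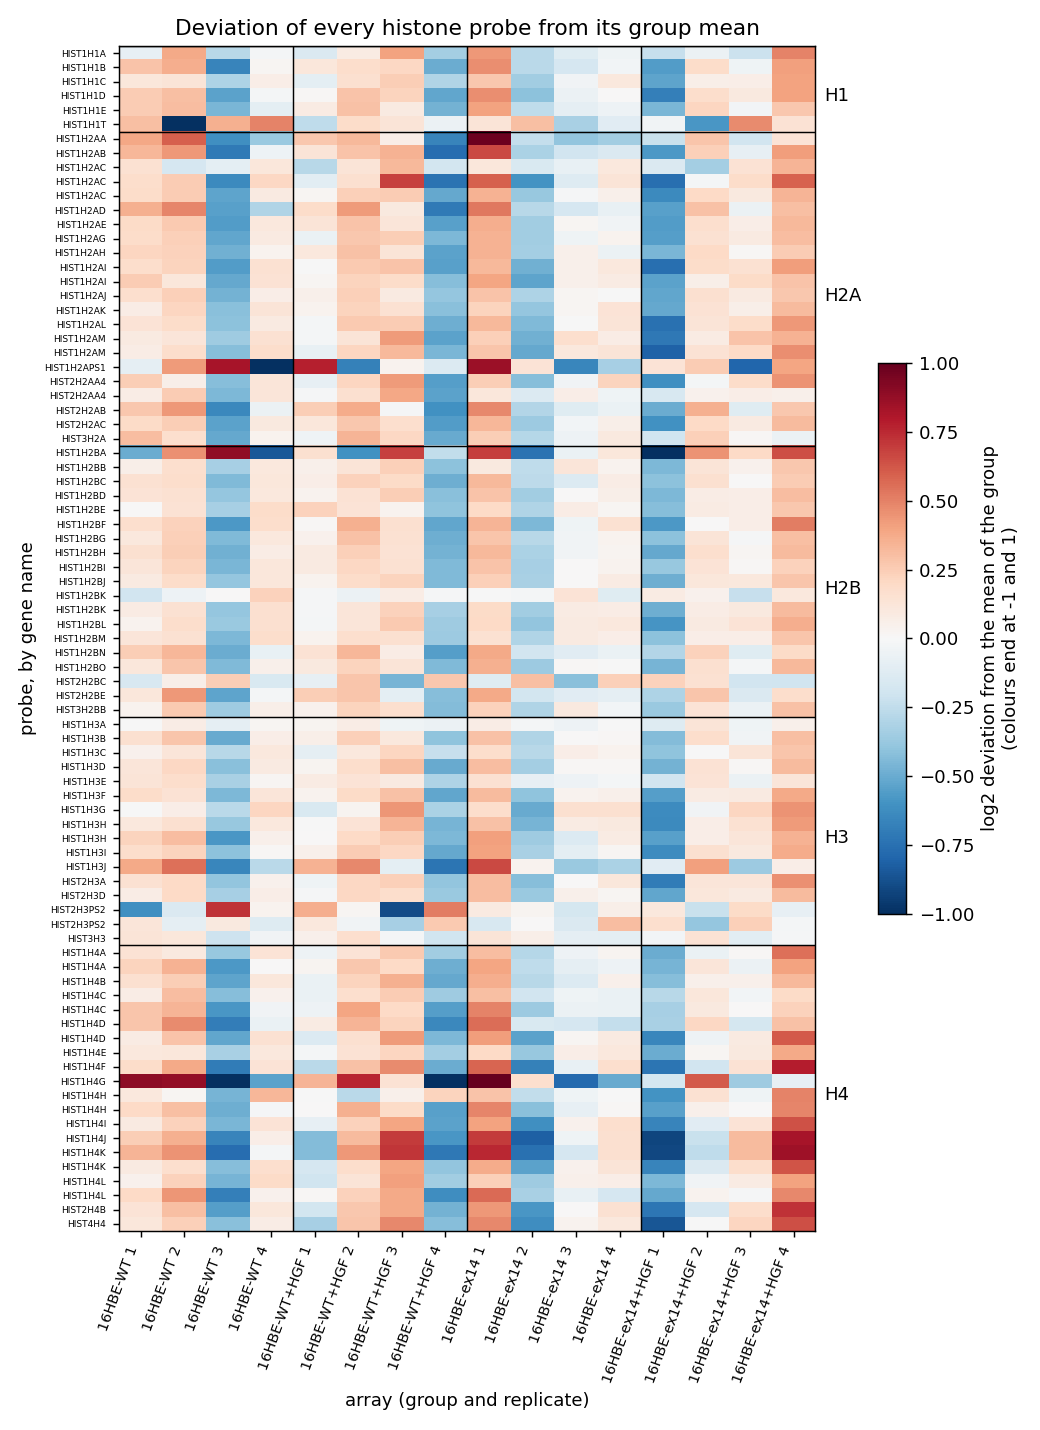
Deviation of each of the 83 tested histone probes (vertical, grouped by class) from its group mean on each of the 16 arrays (horizontal), in log2 units. The 4 low arrays form columns of mostly negative values that run through all classes.

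Histone probes varied more within groups than other probes. The median within-group SD was 0.34 for histone probes and 0.253 for all tested probes. Among probes with a mean level of at least 2 it was 0.339 for 67 histone probes and 0.15 for 7165 probes in all. H4 had the highest class median, 0.408, and H2B the lowest, 0.288. Single members varied less, HIST1H3A having an SD of 0.0779, the more downstream HIST1H2BK probe 0.131 and HIST3H3, a testis-enriched H3 gene, 0.133. Probes that held the stem-loop had a median SD of 0.359 (n = 7), against 0.337 for the other 76.

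Related genes were read on the same low arrays. The median of 20 S-phase genes deviated by -0.09 on the low array of 16HBE-WT and -0.04 on that of 16HBE-WT+HGF. On those of 16HBE-ex14 and 16HBE-ex14+HGF it deviated by -0.18 and -0.14. SLBP, which binds the stem-loop, deviated by -0.09, -0.01, -0.36 and -0.27 in the same order. NPAT, the histone gene coactivator, deviated by -0.23, -0.02, -0.10 and 0.06. The NPAT probe was dim, with a mean level of -2.96 in 16HBE-WT against 4.58 for SLBP, so its values are less certain. High arrays were replicate 1 of 16HBE-ex14, replicate 4 of 16HBE-ex14+HGF and replicate 2 of 16HBE-WT. There the S-phase median deviated by -0.10, 0.06 and -0.14, and SLBP by -0.09, 0.25 and -0.25. In both 16HBE-ex14 groups the S-phase median and SLBP deviations were negative on slide 1 and positive on slide 2. The part of the slide was not tested. In bulk RNA, fewer cells in S phase and less histone RNA per cell cannot be told apart, and the part of RNA quality or of labelling in the low arrays was not tested.

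**Figure D3:**
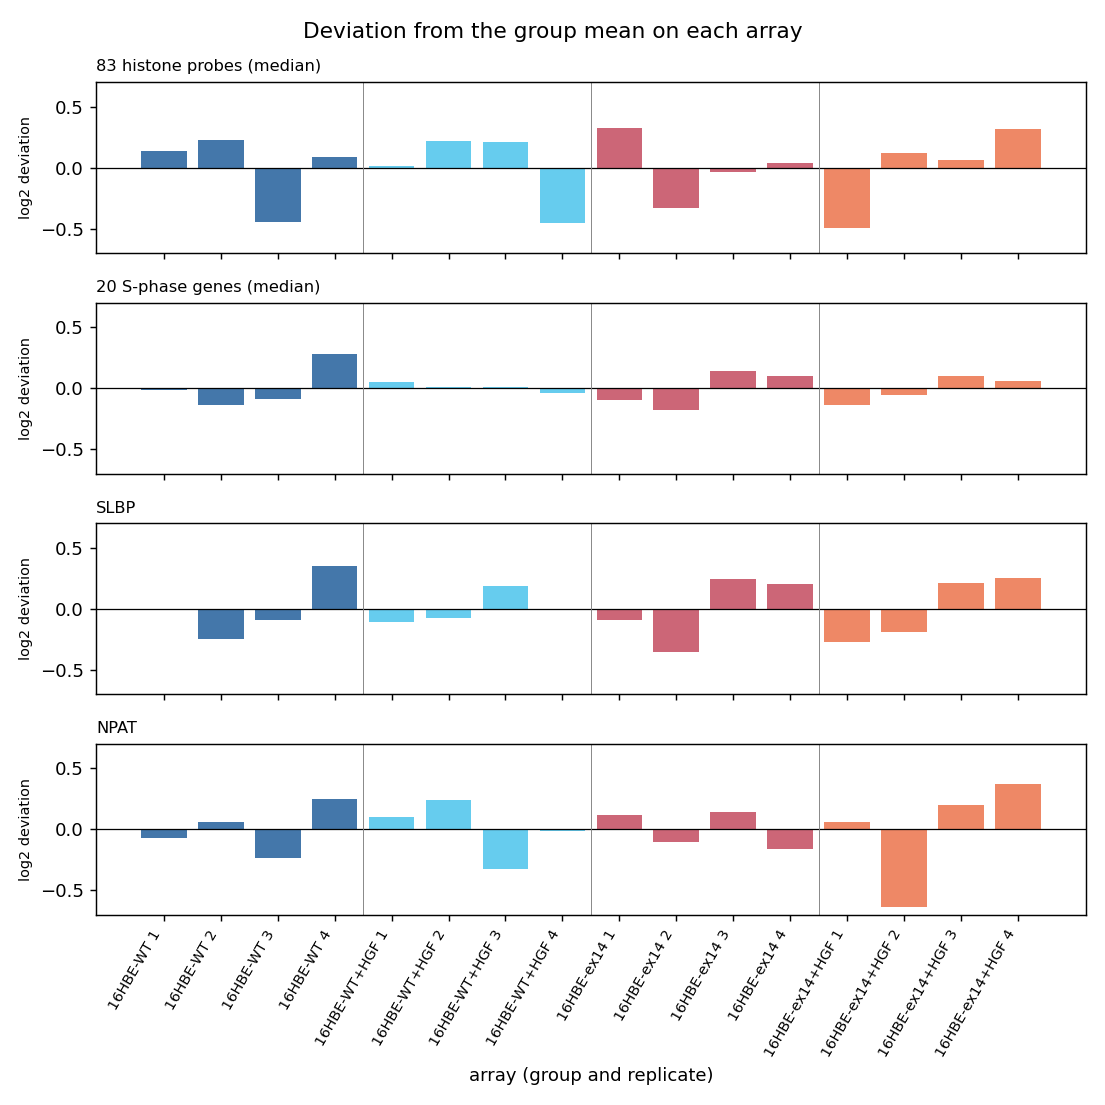
Deviation from the group mean, in log2 units, of the median histone probe, the median S-phase gene, SLBP and NPAT on each of the 16 arrays. On the 4 low arrays the histone median lay between -0.50 and -0.33, while the S-phase median lay between -0.18 and -0.04.

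Brightest members give the scale of this spread. HIST1H4C read 9.77, 9.99, 9.27 and 9.73 in 16HBE-WT and 9.82, 10.05, 10.13 and 9.53 in 16HBE-WT+HGF. In 16HBE-ex14 it read 10.02, 9.52, 9.68 and 9.65, and with HGF 9.44, 9.83, 9.69 and 9.91. The groups overlapped, the low array of each group being the same as for the family. HIST3H3 read 8.14, 8.12, 7.81 and 7.97 in 16HBE-WT and 8.13, 8.06, 7.92 and 7.91 in 16HBE-ex14, so its groups overlapped as well. HIST1H3A read 4.91, 4.99, 4.82 and 4.93 in 16HBE-WT and 5.14, 5.05, 5.01 and 5.06 in 16HBE-ex14, which did not overlap, with a difference of 0.16 that was not called (adjusted p = 0.205). These 2 H3 genes varied least among the tested members besides the downstream HIST1H2BK probe.

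No histone probe was called for HGF in either cell line, where none or few of all tested probes were. The wider spread of histone probes within groups also makes a call harder to reach. In 16HBE-WT, 0 of 83 were called at an adjusted p below 0.05 and a fold change above 1.5, where 0% of all 34599 tested probes were called. The 4 arrays of each group stayed apart for 0 histone probes, against 1.57% of all tested probes higher and 1.02% lower. At an unadjusted p below 0.05 there were 0 histone probes and 1681 probes in all. Of the differences, 75 of 83 were above 0, with a median of 0.09 (HGF minus untreated), against 0.03 for all tested probes. The order of the group medians rested on single arrays, since leaving out 16HBE-WT replicate 3 gave a median of -0.05 and leaving out 16HBE-WT+HGF replicate 4 gave 0.25.

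In 16HBE-ex14, 0 of 83 were called with HGF, where 1.99% of all tested probes were, 1.05% higher and 0.936% lower. For 83 probes, 0 calls lie close to that share. The smallest unadjusted p belonged to the downstream HIST1H2BK probe, which was 0.35 ± 0.10 (SE) higher with an adjusted p of 0.103, and it was the 1 histone probe below 0.05, where 4928 of 34599 probes were. For 0 histone probes did the arrays stay apart, against 4.5% of all tested probes higher and 4.37% lower. The median difference was -0.12, with 13 of 83 above 0, against a median of 0.06 over all tested probes. By class the medians were -0.15 for H1, -0.12 for H2A, -0.19 for H2B, -0.11 for H3 and -0.06 for H4. Within slides the difference of array medians was -0.31 on slide 1 and 0.08 on slide 2, and without 16HBE-ex14+HGF replicate 1 the median over probes was 0.05. The difference of the HGF responses between the lines had 0 calls, as over all probes (0%), with 1 histone probe at an unadjusted p below 0.05, where 1586 of 34599 probes were.

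Without HGF, 7 histone probes of 6 genes were higher in 16HBE-ex14 than in 16HBE-WT and 0 were lower. That is 8.43% of 83, where 9.43% of all tested probes were called, 4.5% higher and 4.93% lower. The 4 arrays of 16HBE-ex14 all lay above those of 16HBE-WT for 9 histone probes, against 10.9% of all tested probes, and below them for 0, against 10.4%. The median histone difference was 0.22, with 74 of 83 above 0, against -0.02 over all tested probes. It was 0.22 for H1, 0.18 for H2A, 0.20 for H2B, 0.22 for H3 and 0.38 for H4. Without 16HBE-WT replicate 3 the median was 0.10 and without 16HBE-ex14 replicate 2 it was 0.35. The difference of array medians was 0.02 on slide 1 and 0.42 on slide 2.

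With HGF in both lines, 6 histone probes of 5 genes were higher in 16HBE-ex14+HGF than in 16HBE-WT+HGF and 0 were lower. That is 7.23% of 83, where 10.8% of all tested probes were called, 5.38% higher and 5.43% lower. The 4 arrays of the clone all lay above those of the wild-type line for 6 histone probes, against 12.4% of all tested probes, and below them for 0, against 11.5%. The median histone difference was -0.0026, with 40 of 83 above 0, against 0.00014 over all tested probes. Class medians were -0.02 for H1, -0.04 for H2A, -0.03 for H2B and 0.14 for H4. On slide 1 the difference of array medians was -0.31 and on slide 2 it was 0.37. Without 16HBE-WT+HGF replicate 4 the median over probes was -0.15, and without 16HBE-ex14+HGF replicate 1 it was 0.17. The genotype comparisons share no arrays with each other, but each shares a group with each HGF comparison.

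**Figure D4:**
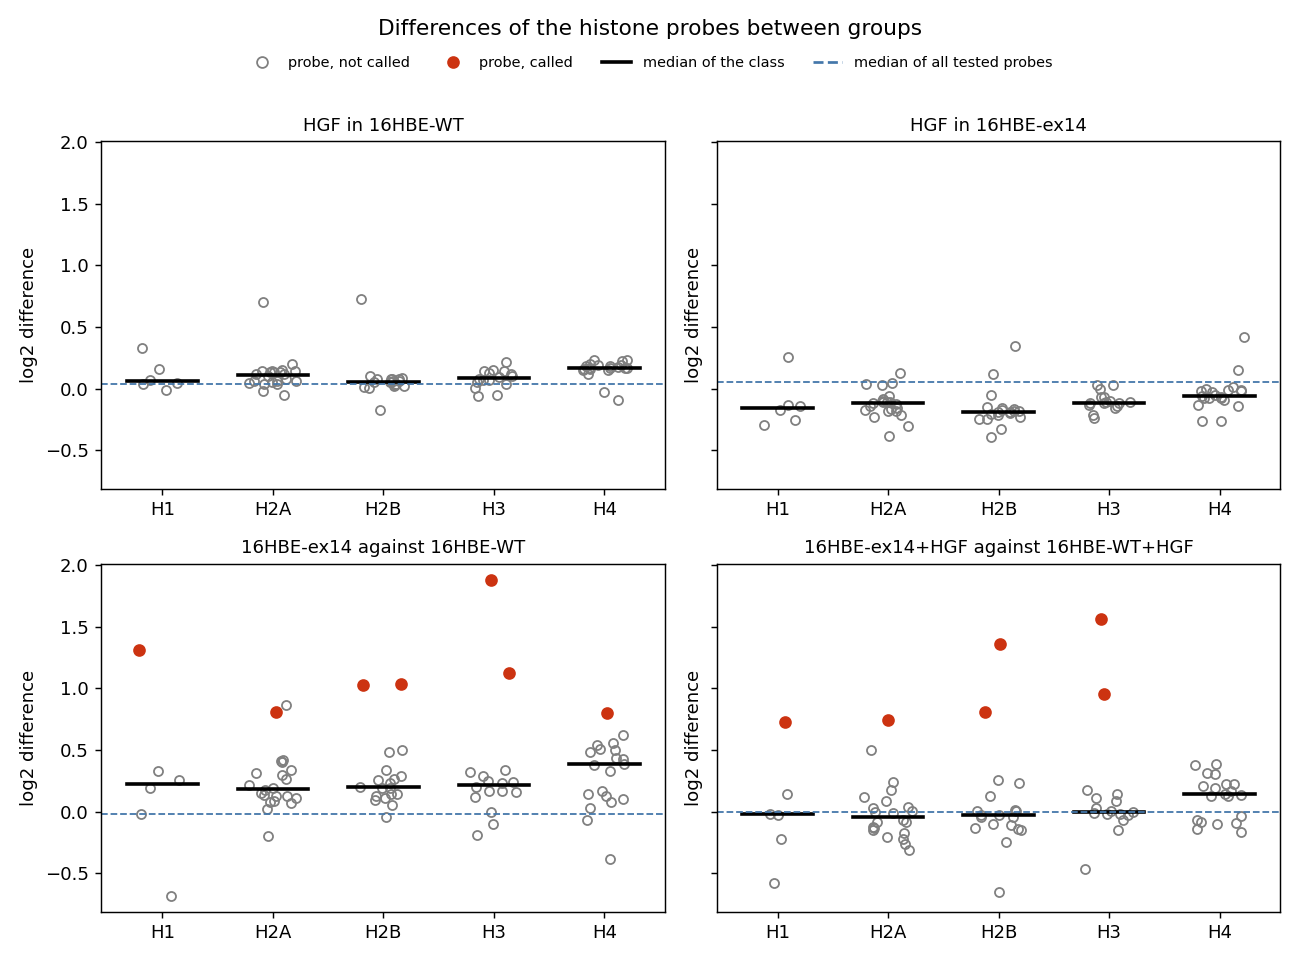
Log2 difference of each tested histone probe by class in the 4 comparisons, with called probes marked. The called probes lie above 0 in both genotype comparisons (7 and 6), and none is called for HGF.

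HIST2H3PS2, an H3 gene, had the largest difference. The probe that holds AATAAA read -1.08, -1.29, -1.10 and -1.33 in 16HBE-WT and -0.88, -1.02, -1.32 and -0.73 with HGF. It read 0.51, 0.68, 0.53 and 0.99 in 16HBE-ex14 and 0.74, 0.18, 0.81 and 0.55 with HGF. All 8 arrays of 16HBE-ex14 were above all 8 of 16HBE-WT. The difference was 1.88 ± 0.16 (SE, adjusted p = 3.13e-06), or 3.67-fold, without HGF and 1.56 ± 0.16 (adjusted p = 1.29e-05), or 2.95-fold, with it. The other HIST2H3PS2 probe, upstream at chr1:149398604-149398663, was dim, from -4.78 to -2.60 over the arrays and well above background on 14 of them. Its differences were 1.13 (adjusted p = 0.0134) and 0.95 (adjusted p = 0.0291), and they were 0.08 and 0.01 after another background correction (normexp). The call with HGF was also lost when only the compared groups were fitted (adjusted p = 0.0574), and without replicate 2 or 3 of 16HBE-WT+HGF or replicate 1, 3 or 4 of 16HBE-ex14+HGF.

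HIST1H1A, a linker histone gene, read 1.64, 2.10, 1.44 and 1.70 in 16HBE-WT and 3.46, 2.76, 2.91 and 2.99 in 16HBE-ex14. With HGF it read 1.90, 2.13, 2.45 and 1.70 in the wild-type line and 2.55, 2.72, 2.56 and 3.27 in the clone. The groups did not overlap at either condition, although the lowest 16HBE-ex14+HGF array was close to the highest of 16HBE-WT+HGF. The difference was 1.31 ± 0.21 (SE, adjusted p = 0.000587), or 2.48-fold, without HGF. With HGF it was 0.73 ± 0.21 (adjusted p = 0.0228), and this call was lost when only the compared groups were fitted (adjusted p = 0.0505). It was also lost without replicate 1 or 4 of 16HBE-WT+HGF or replicate 4 of 16HBE-ex14+HGF. Of the other H1 genes, HIST1H1C, HIST1H1E and HIST1H1D were not called, with differences of 0.33, 0.19 and 0.26 without HGF (adjusted p = 0.29 to 0.625). HIST1H1B and HIST1H1T went the other way, at -0.02 (adjusted p = 0.976) and -0.68 (adjusted p = 0.157), and were not called either.

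HIST1H2BK, an H2B gene, gave different values at its 2 probes. The downstream probe (chr6:27106191-27106250, minus strand) read 1.51, 1.65, 1.70 and 1.93 in 16HBE-WT and 2.72, 2.71, 2.87 and 2.61 in 16HBE-ex14. With HGF it read 1.70, 1.66, 1.79 and 1.71 in the wild-type line and 3.16, 3.12, 2.85 and 3.18 in the clone. No array of 16HBE-WT reached the lowest array of 16HBE-ex14. The difference was 1.03 ± 0.10 (SE, adjusted p = 1.41e-05), or 2.05-fold, and 1.36 ± 0.10 (adjusted p = 1e-06), or 2.57-fold, with HGF.

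The other HIST1H2BK probe, 8246 bases upstream at chr6:27114437-27114496, read 4.46, 4.52, 3.99 and 4.54 in 16HBE-WT and 4.76, 4.22, 4.66 and 4.65 in 16HBE-ex14. Its groups overlapped, the differences were 0.19 (adjusted p = 0.544) and -0.10 with HGF (adjusted p = 0.775), and its accessions name 3 genes. The difference between the probes of a pair was not tested. The first 30 bases of each probe are shown because the 2 probes report different stretches of the gene model.
HIST1H2BK downstream: ggtccattccttctctctaataatcattta
HIST1H2BK upstream: aagaagcgcaagcgcagccgcaaggagagc

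HIST2H2AA4, an H2A gene, was called at the probe that spans the stem-loop and AATAAA. It read 2.85, 3.02, 2.33 and 2.90 in 16HBE-WT and 3.70, 3.44, 3.65 and 3.54 in 16HBE-ex14. With HGF it read 2.96, 3.13, 3.35 and 2.43 in the wild-type line and 3.55, 3.75, 3.77 and 3.76 in the clone. The groups did not overlap, and the differences were 0.81 ± 0.18 (SE, adjusted p = 0.00564) and 0.74 ± 0.18 (adjusted p = 0.00869). Without 16HBE-WT+HGF replicate 4 the difference with HGF was 0.56 and no longer past the fold limit. The other HIST2H2AA4 probe (chr1:149822628-149822687) differed by 0.30 (adjusted p = 0.476) and 0.03 (adjusted p = 0.947).

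HIST2H2BC, an H2B pseudogene, read -2.72, -2.49, -2.31 and -2.71 in 16HBE-WT and -1.65, -1.23, -1.94 and -1.29 in 16HBE-ex14. With HGF it read -2.81, -2.45, -3.19 and -2.46 in the wild-type line and -1.68, -1.76, -2.11 and -2.11 in the clone. Its groups did not overlap, and it was 1.03 ± 0.19 (SE, adjusted p = 0.00193) higher in the clone without HGF and 0.81 ± 0.19 (adjusted p = 0.00811) higher with it. These dim values depended on the background correction, normexp giving 0.32 and 0.18. One of 2 HIST1H4A probes read 1.21, 1.17, 0.69 and 1.21 in 16HBE-WT and 2.18, 1.58, 1.82 and 1.90 in 16HBE-ex14, a difference of 0.80 ± 0.21 (SE, adjusted p = 0.0152). With HGF it differed by 0.39 (adjusted p = 0.226), and the other HIST1H4A probe differed by 0.38 (adjusted p = 0.31) without HGF. The H4 genes HIST1H4C, HIST1H4L and HIST1H4B were not called, at 0.03, 0.16 and 0.10.

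The other tested genes with a probe more than 900 bases from the rest, a distance chosen after the values were seen, gave no call. The downstream HIST1H2AC probe (chr6:26138822-26138881, plus strand) differed by 0.42 (adjusted p = 0.0883), and with HGF by 0.50 ± 0.16 (SE, adjusted p = 0.0385), under the fold limit. The HIST1H2AC probe at chr6:26124461-26124520 differed by 0.02 and -0.26. At HIST1H4H the downstream probe, which holds AATAAA, differed by -0.38 (adjusted p = 0.256) and the upstream one by 0.43 (adjusted p = 0.291). Of the further genes with known polyadenylated forms, HIST1H2BC, HIST1H2BD and HIST2H2BE differed by 0.14, 0.10 and 0.29 without HGF (adjusted p = 0.411 to 0.795).

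**Figure D5:**
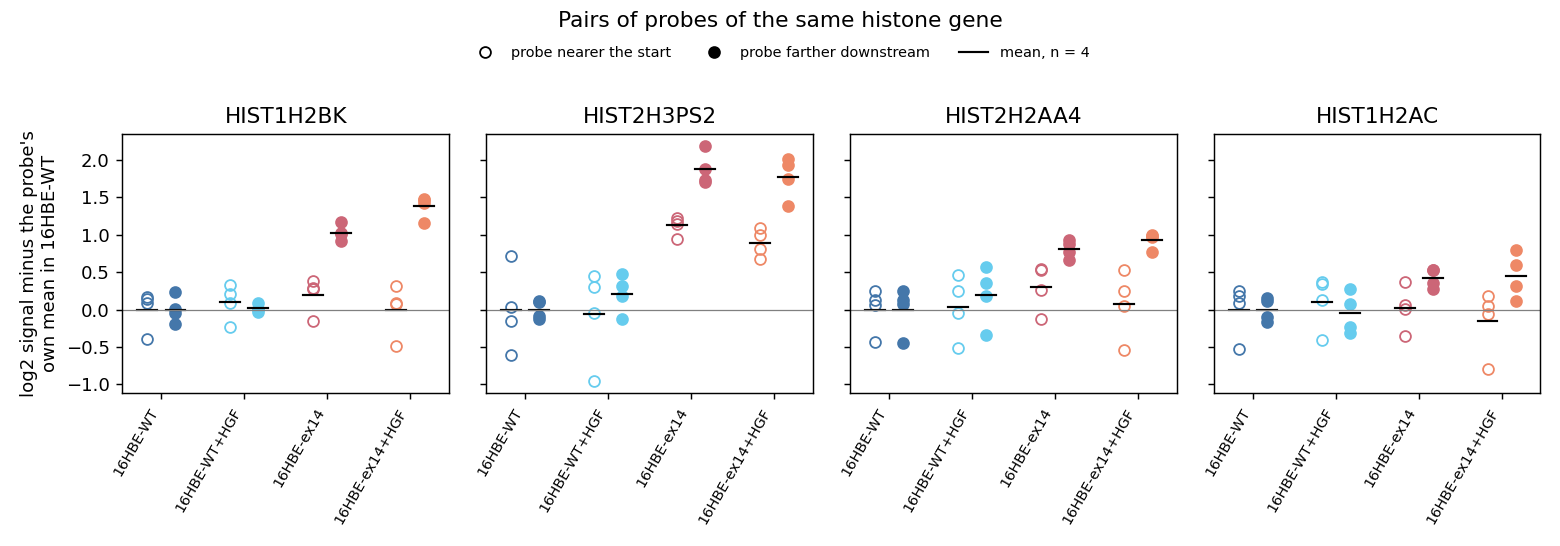
Level on each array of the upstream and downstream probes of HIST1H2BK, HIST2H3PS2, HIST2H2AA4 and HIST1H2AC, each minus its own 16HBE-WT mean, in log2 units. The downstream HIST1H2BK probe lies above 0 in both 16HBE-ex14 groups while the upstream probe scatters about 0.

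The remaining bright members named by class were all uncalled. Without HGF the H2A genes HIST1H2AJ, HIST1H2AK and HIST1H2AH differed by 0.07, 0.13 and 0.09. The H2B genes HIST1H2BL, HIST1H2BH and HIST1H2BO differed by 0.23, 0.20 and 0.26. The H3 genes HIST2H3A and HIST2H3D differed by 0.34 and 0.32, and HIST3H3 by -0.01. Their adjusted p ranged from 0.31 to 0.979. HIST1H1T was well above background on no 16HBE-ex14 array. It read -3.99, -5.44, -3.94 and -3.79 in 16HBE-WT and -4.84, -4.67, -5.30 and -5.08 in 16HBE-ex14, which overlapped, and it was not called (adjusted p = 0.157).

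By place in the genome, the chromosome 1 members had a larger median difference than those of the large chromosome 6 cluster. Without HGF the 68 chromosome 6 probes had a median difference of 0.18, 3 of them called, where 9.43% of all tested probes were. The 11 probes of the pericentromeric chromosome 1 cluster had a median of 0.41, all 11 above 0 and 4 called. With HGF the medians were -0.03 and 0.24, and the chromosome 1 probes again had 11 of 11 above 0 and 4 called, where 10.8% of all tested probes were. With normexp, 2 of these 4 (HIST2H2BC and the upstream HIST2H3PS2 probe) were not called in either comparison. The 3 probes of the distal chromosome 1 cluster had a median of 0.41 without HGF and 0.03 with it. HIST4H4 on chromosome 12 differed by 0.54 (adjusted p = 0.27) and 0.31 (adjusted p = 0.553). The called chromosome 1 probes belong to HIST2H3PS2, HIST2H2AA4 and HIST2H2BC. The difference between clusters was not tested.

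Probes of other genes in the same spans had other medians. On chromosome 6, between 25726622 and 27861588 (hg19), 45 tested probes of other genes had a median of -0.16 without HGF and -0.25 with it. Of these 45, 1 (2.22%) and 2 (4.44%) were called lower, where 4.93% and 5.43% of all tested probes were. On chromosome 1, between 149397179 and 149859244, 12 probes of other genes had medians of 0.02 and -0.02, against 0.48 and 0.27 for the histone probes in that span. Of the 12, 1 was called higher without HGF, where 4.5% of all tested probes were.

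Of 13 tested genes of histone RNA processing, 0 were called in any comparison, where 0% to 10.8% of all tested probes were. Between the untreated lines 3 passed the adjusted p under the fold limit. The share of all tested probes that passed the adjusted p alone is not given, so the 3 are not read as particular to this list. At an unadjusted p below 0.05 there were 10462 of 34599 probes in that comparison. CASP8AP2, a histone locus body protein, differed by -0.54 (adjusted p = 0.00259), and by -0.47 (adjusted p = 0.00554) with HGF. SYMPK, a scaffold of the cleavage complex, differed by 0.31 (adjusted p = 0.0393), and LSM10, a subunit of the U7 particle, by -0.36 (adjusted p = 0.0394). SLBP differed by 0.27 (adjusted p = 0.302) between the untreated lines and 0.22 (adjusted p = 0.425) with HGF. NPAT, read at a dim probe, differed by 0.19 (adjusted p = 0.571) and 0.06 (adjusted p = 0.875).

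Of 11 tested replacement histones, which are also made outside S phase, 2 were called higher in 16HBE-ex14 without HGF. Of all tested probes 9.43% were called there. H2AFY2, a macroH2A gene, was 1.02 ± 0.14 (SE, adjusted p = 0.000179) higher, and 1.01 (adjusted p = 0.000172) with HGF. H1F0 was 0.63 ± 0.15 (adjusted p = 0.00866) higher, and 0.46 (adjusted p = 0.0404) with HGF, under the fold limit. With HGF, CENPA, the centromeric H3, differed by -0.80 ± 0.16 (adjusted p = 0.00258). H2AFY2 and CENPA were the calls of this list with HGF, where 10.8% of all tested probes were called. Of 13 chaperones, ATRX, a remodeller that deposits H3.3, was 0.63 ± 0.11 (adjusted p = 0.00101) higher in 16HBE-ex14. ATRX was the only chaperone called there, where 9.43% of all tested probes were. NASP, an H1 and H3-H4 chaperone, fell by 0.72 ± 0.17 (adjusted p = 0.0351) with HGF in 16HBE-ex14, and between the HGF-treated lines it differed by -0.86 (adjusted p = 0.00235). In each of these comparisons NASP was the only chaperone called, where 1.99% and 10.8% of all tested probes were.

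S-phase genes were called in both directions. Of 20 tested, 2 were called higher and 1 lower in 16HBE-ex14 without HGF, where 9.43% of all tested probes were called. With HGF in both lines 4 were called higher and 1 lower, where 10.8% of all tested probes were. CDT1, which licenses replication origins, was 1.19 higher (adjusted p = 4.38e-05) and GINS2, a subunit of the replicative helicase, 1.10 higher (adjusted p = 5.38e-05). RRM2, the small subunit of ribonucleotide reductase, differed by -0.64 (adjusted p = 0.0065). Between the HGF-treated lines CDC6 was 0.69 and CCNE1 0.65 higher (adjusted p = 0.000875 and 0.000551). The median of the list was 0.20 in both genotype comparisons, against -0.02 and 0.00014 over all tested probes. Above 0 lay 17 and 14 of 20, against 47.8% and 50% of all tested probes. With HGF in 16HBE-ex14, CCNE1, the cyclin of S-phase entry, was 0.60 ± 0.11 (adjusted p = 0.00766) higher. It was the only called gene of the list there, where 1.99% of all tested probes were called.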

How the data were processed

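Total RNA of 16 cultures was labelled with cyanine 3 and hybridised to 60-mer arrays with 62976 spots. The authors extracted spot intensity with Agilent Feature Extraction 10.7.3.1, and per the file headers the deposited processed signal had a spatial surface subtracted and a multiplicative trend removed, with local background subtraction off. The deposited series table held the same values. From these intensity values, log2 was taken, each array's 75th percentile subtracted, outlier spots left out and the spots of a probe averaged. Probes that 4 or more of the 16 arrays had well above background were fitted on all 4 groups with limma 3.58.1 in R 4.3.3. P-values were adjusted by the Benjamini-Hochberg method over all 34599 tested probes per comparison, and calls required an adjusted p below 0.05 and a fold change above 1.5. The number of arrays, 4 per group, limits the precision. The script was tested on simulated data.

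Members, lists of related genes and tests were chosen with earlier results of these data known. Named genes were the 3 of highest mean signal per class, called histone probes (up to 5 per direction and comparison), genes known to make polyadenylated RNA, called genes of the related lists (up to 5 per comparison), SLBP, NPAT and MET. Others are named as chosen after their values were seen, HIST1H3A, HIST1H1B, HIST1H1T, HIST1H4H, HIST4H4, CASP8AP2, SYMPK and LSM10 among them. Alternatives covered background correction, scaling, filters, blocks, thresholds and single arrays. Current symbols and promoters came from RefSeq (GRCh38.p14), and probe positions, in hg19, from the files.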

Additional observations from a re-analysis of the deposited data

Results flagged for a closer look

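A single array far from the other 3 of its group was measured as its gap to the nearest other array over the whole range, against Dixon's critical value for 4 arrays, which chance passes in about 1 of 20 groups. In 16HBE-WT the histone median had a ratio of 0.872, with arrays from 4.10 to 4.85. The class medians there had 0.898 for H2A, 0.834 for H2B and 0.871 for H3. Of named genes in 16HBE-WT, HIST1H1C had 0.857, HIST1H4B 0.83, HIST1H2BC 0.897, HIST1H2BD 0.917 and the upstream HIST1H2BK probe 0.852. Replicate 3 was the lowest array in each of these. In 16HBE-ex14+HGF the HIST2H2AA4 probe with the stem-loop had 0.913, its arrays lying between 3.55 and 3.77. In 16HBE-ex14 HIST2H2BE had 0.832, with arrays from -0.28 to 0.28. Of the 83 histone probes, 20 passed that value in 16HBE-WT (24.1%, against 5.13% of all tested probes), 2 in 16HBE-WT+HGF (2.41% against 5.6%), 4 in 16HBE-ex14 (4.82% against 4.72%) and 1 in 16HBE-ex14+HGF (1.2% against 4.61%).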

How the results depend on the processing

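Without scaling, 38 histone probes were called between the untreated lines and 15 between the HGF-treated lines, including every probe called with scaling, with medians of 0.592 (all probes 0.354) and 0.38 (all probes 0.383). With 1 probe per gene, 4 of 69 were called between the untreated lines. Leaving out 1 array at a time gave 7 to 8 calls between the untreated lines and 4 to 7 between the HGF-treated lines, the lowest without replicate 4 of 16HBE-WT+HGF or of 16HBE-ex14+HGF, and 0 to 0 for HGF in either line and for the difference of the HGF responses. The medians then ranged from 0.0998 to 0.351 and from -0.149 to 0.169 between the lines, from -0.0519 to 0.245 for HGF in 16HBE-WT, from -0.254 to 0.0483 for HGF in 16HBE-ex14 and from -0.387 to -0.0595 for the difference of responses. Without the lowest array of each group, an alternative chosen after seeing the data, the medians were 0.202 and 0.0113 between the lines, 0.0996 and -0.0713 for HGF, and -0.18. With each slide row as a replicate block, 7, 6 and 0 probes were called, and the block changed no histone call. The medians stayed the same (0.219, -0.00255, 0.0911, -0.119 and -0.236), which the design fixed, since each row held 1 array of every group. Array median scaling turned the HGF median in 16HBE-WT to -0.0247 (all probes -0.081). Within slides the medians between the untreated lines were 0.011 and 0.426. With normexp, 5 and 4 probes were called, HIST2H2BC and the upstream HIST2H3PS2 probe being lost. Of 422 alternative values for single called probes, 407 kept the call or direction, 15 lost the call and 0 reversed. The causes of these changes were not tested. Dim probes, near the lowest signal well above background (-4.39), are the least certain.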
